A study of Mus musculus with 12 samples.

Results

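The gamma crystallins are small water-soluble proteins of the lens, and the family examined here was given by 8 gene symbols, Cryga, Crygb, Crygc, Crygd, Cryge, Crygf, Crygn and Crygs. All 8 had a row among the 25655 genes of the deposited tables. The family was put together with its levels in these retinas already known, so the levels of its members are given as a description and no p-value is read for them. RNA came from the whole retina of C57BL/6J mice, 8 to 10 weeks old, collected 2 days after the optic nerve was crushed (ONC), and every retina analysed had this injury. After ONC the eye was injected into the vitreous with PBS (the control), with fluvastatin, a statin that blocks HMG-CoA reductase, or with MBV, matrix-bound nanovesicles, and each of these groups had 3 libraries. The labels do not say whether a library came from 1 animal or from several, so the spread between libraries may be in part technical. A group given MBV and fluvastatin together, with 3 libraries, is not analysed here. The 9 libraries held 21349516 to 30992040 counts on genes. PBS libraries and the 2 treated groups carry library numbers from different sets, so the effect of a treatment against PBS and that of the set cannot be told apart, whereas fluvastatin and MBV share a set.

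Crystallins are stored at very high concentration in the fibre cells of the lens, where they give the lens its transparency and refractive power, and they are not made anew in the oldest fibres, which have lost their nuclei. Alpha crystallins are small heat shock proteins that keep other proteins soluble, while beta and gamma crystallins share a fold and belong to a single superfamily. Cryga to Crygf are genes of the lens fibres that are expressed strongly early in life, Crygs is the gamma crystallin of the mature lens and lens cortex, and Crygn is an early branch between the beta and gamma families. The retina is not the main site of any of them. In RNA from a whole retina, fewer cells of a type and less RNA per cell cannot be told apart.

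In the coordinates of GRCm39, 5 members lie next to each other on the minus strand of chromosome 1, from the start of Cryge at 65087713 to the end of Cryga at 65142532. Between these come Crygd at 65101031 to 65102611, Crygc at 65110684 to 65112848 and Crygb at 65119378 to 65121447. Crygf lies apart from them on the plus strand of chromosome 1 at 65965679 to 65967466. The other members are on the minus strand of chromosome 5, with Crygn at 24956001 to 24963006, and of chromosome 16, with Crygs at 22623953 to 22630327. The 100 bases before the RefSeq start of each gene are shown because the members' counts moved together in some libraries and not in others. Whether these sequences bear on the counts was not tested. RefSeq starts differ from the gene spans given above. The windows of Crygc, Crygn and Crygs lie within these spans, and those of Cryga, Crygd and Crygf reach into them. The sequences are RefSeq's from GRCm38.p6, each was found once, by exact match, on its GRCm39 chromosome, and each is written 5′ to 3′ on the gene's own strand. Capitals mark TTTGTG, and TATATA or, in Crygs, TATAAA.
Cryga, chr1:65142523-65142622: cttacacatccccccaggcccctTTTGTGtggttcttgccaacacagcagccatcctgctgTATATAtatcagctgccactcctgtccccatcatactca
Crygb, chr1:65121450-65121549: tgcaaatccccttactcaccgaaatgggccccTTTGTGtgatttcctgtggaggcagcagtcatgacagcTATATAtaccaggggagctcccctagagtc
Crygc, chr1:65112692-65112791: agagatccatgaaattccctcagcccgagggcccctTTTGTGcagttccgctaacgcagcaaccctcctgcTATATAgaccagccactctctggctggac
Crygd, chr1:65102600-65102699: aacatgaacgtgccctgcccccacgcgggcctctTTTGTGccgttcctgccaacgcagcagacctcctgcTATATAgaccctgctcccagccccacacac
Cryge, chr1:65090323-65090422: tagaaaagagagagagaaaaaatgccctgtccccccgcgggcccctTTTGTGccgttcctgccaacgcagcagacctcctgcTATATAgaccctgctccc
Crygf, chr1:65965581-65965680: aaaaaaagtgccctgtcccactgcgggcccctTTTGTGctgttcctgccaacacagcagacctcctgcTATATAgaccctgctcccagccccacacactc
Crygn, chr5:24962847-24962946: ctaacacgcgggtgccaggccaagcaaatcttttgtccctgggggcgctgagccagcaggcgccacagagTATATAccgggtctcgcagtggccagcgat
Crygs, chr16:22630161-22630260: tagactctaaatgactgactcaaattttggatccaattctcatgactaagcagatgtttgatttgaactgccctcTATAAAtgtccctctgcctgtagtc

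The 6 members of chromosome 1 held both TTTGTG and TATATA in these windows, with 35 to 38 bases from the start of the first to the start of the second. Crygn held TATATA without TTTGTG, and Crygs held TATAAA. The motifs TATATA and TTTGTG were picked after the sequences had been read, while TATAAA, known as the TATA box, and the motifs that follow had been listed earlier. On either strand, TATATA occurred in 2.19% of the same windows, TTTGTG in 6.01% and TATAAA in 5.54%, out of all 32544 different promoters of the RefSeq table. The first and the last of these can overlap each other. Within the 300-base promoters, TGCTGA, the core of a site for Maf factors, was found in Cryga, Crygc, Crygn and Crygs and in 19.5% of all promoters. ACAAAG, a core for Sox factors, was found in Cryga and Crygb and in 18.7% of all promoters. The longest identical run between 2 promoters was 78 bases, between Crygd and Cryge, and Crygf shared runs of 64 and 55 bases with these 2. The transcripts are also alike. Of all stretches of 75 bases, the length of the reads, in the longest coding transcript, 17.1% in Crygd, 30.8% in Cryge and 21.3% in Crygf occurred exactly in another of these 3 genes. The figure was 25.7% in Crygb and 20.7% in Crygc, which shared their stretches with each other. Counts of these 5 genes are therefore uncertain in how the reads were split among them. Cryga shared 49.6% with Gm28845, an annotated overlapping gene of the same strand that had 10 counts over all libraries, and Crygs shared 39.5% with Gm30416, a lncRNA on the opposite strand that has no row in the tables. Crygn shared no such stretch, and its gene overlaps the lncRNA Gm33591.

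With PBS the gamma crystallins had few counts, at most 19 for a gene in a library, where the limit of detection was set at 3 counts per library. Together the 8 genes had 64, 27 and 6 counts in PBS replicates 1 to 3. With fluvastatin they had 25, 226 and 11 counts, and with MBV 2942, 211 and 412. After scaling by library size, the summed level was 1.08 ± 0.936 CPM (counts relative to the library size; SD, n = 3) with PBS, 3.32 ± 4.45 CPM with fluvastatin and 44.9 ± 54.3 CPM with MBV. All 3 MBV libraries lay above all 6 others in this sum, though MBV replicate 2, at 9.64 CPM, was near fluvastatin replicate 2, at 8.45 CPM. The large SDs come with 2 libraries that stand apart within their groups, MBV replicate 1 at 107.5 CPM and fluvastatin replicate 2. Results that rest on either library are given with and without it.

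**Figure D1:**
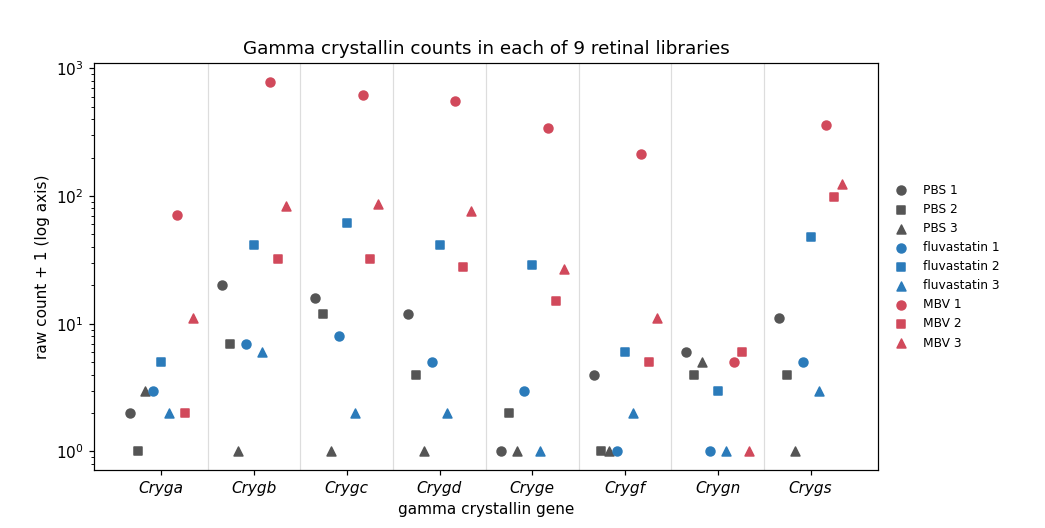
Raw count plus 1 (log axis) of each gamma crystallin gene in each of the 9 libraries, with colours for the groups and symbols for replicates 1 to 3. MBV replicate 1 is the highest library for every gene except Crygn, with 782 counts of Crygb and 361 of Crygs, and Crygn does not exceed 5 counts in any library.

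Crygb, a structural protein of the lens fibre, had 19, 6 and 0 counts with PBS, 6, 40 and 5 with fluvastatin, and 782, 31 and 82 with MBV. The neighbouring gene Crygc had 15, 11 and 0 counts with PBS, 7, 60 and 1 with fluvastatin, and 617, 31 and 86 with MBV. Crygd, in which mutations cause cataract, had 11, 3 and 0 counts with PBS, 4, 40 and 1 with fluvastatin, and 556, 27 and 75 with MBV. In each of these 3 genes the lowest MBV library was above the highest PBS library in CPM, but below fluvastatin replicate 2.

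Cryge, whose mutations also give cataract in mice, had 0, 1 and 0 counts with PBS, 2, 28 and 0 with fluvastatin, and 340, 14 and 26 with MBV. Crygf, the member that lies apart on chromosome 1, had 3, 0 and 0 counts with PBS, 0, 5 and 1 with fluvastatin, and 212, 4 and 10 with MBV. Cryga, the last gene of the row on chromosome 1, had 1, 0 and 2 counts with PBS, 2, 4 and 1 with fluvastatin, and 70, 1 and 10 with MBV. For Cryga MBV replicate 2 lay below PBS replicate 3, so the groups overlapped. For Cryge and Crygf every MBV library lay above every PBS library, for Crygf by as little as 4 counts against 3.

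Crygs, the gamma crystallin of the mature lens, had 10, 3 and 0 counts with PBS, 4, 47 and 2 with fluvastatin, and 361, 98 and 123 with MBV. It was the only member whose lowest MBV library exceeded the highest library of both other groups, and the level was 7.64 ± 4.82 CPM with MBV, 0.669 ± 0.943 CPM with fluvastatin and 0.142 ± 0.166 CPM with PBS (SD, n = 3 in each). Crygn, the early branch of the family, did not follow the others. It had 5, 3 and 4 counts with PBS, 0, 2 and 0 with fluvastatin, and 4, 5 and 0 with MBV, so no difference was detectable at this depth between MBV and PBS.

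Per kilobase of the longest coding transcript, the mean level with MBV was 17.3 CPM for Crygb, 11.8 for Crygc, 9.73 for Crygd and 8.73 for Crygs. It was 6.53 for Cryge, 4.44 for Crygf, 1.60 for Cryga and 0.163 for Crygn on the same scale. The SDs over the 3 libraries were 23.4 for Crygb, 14.8 for Crygc, 12.4 for Crygd and 5.51 for Crygs. They come mostly from MBV replicate 1, at 44.3, 28.8, 24.0 and 15.1 CPM per kilobase, so they do not measure how firm the order is. The means rest on this library too, and none was taken per kilobase without it. Before scaling by length, Crygs was the highest member in MBV replicates 2 and 3, at 4.48 and 5.26 CPM. Crygb had 1.42 and 3.51 CPM there. With PBS the order was Crygb, Crygc, Crygn and Crygd, from 0.425 to 0.181 CPM per kilobase, and nothing is read from it at such low counts.

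The first comparison asked what MBV alone did to the injured retina. The summed count of the 8 genes, relative to library size, was 43.7 times that with PBS (95% counting interval 35.7 to 54.1), and 12.3 times without MBV replicate 1 (9.88 to 15.3). These intervals cover counting error only and not the spread between retinas. PBS replicate 1 held 64 of the 97 PBS counts, and no ratio was taken without it. MBV replicate 1 held 84.1% to 93.8% of the MBV counts of Cryga to Crygf, but 62.0% of those of Crygs. Accordingly the ratio for Crygb went from 42.6 to 8.63 without this library, for Crygc from 33.6 to 8.59, and for Crygd from 55.9 to 13.9. That for Crygs went from 53.3 (30.9 to 101) to 32.4 (18.6 to 61.9). The PBS counts of Cryga, Cryge and Crygf were 3, 1 and 3 in all, so their ratios have wide intervals. For Cryge it was 452 (80.6 to 17901), or 76.3 (12.9 to 3090) without MBV replicate 1, and for Crygf it was 89.6 (30.3 to 438) or 8.91 (2.49 to 48.3). For Cryga it was 32.1 (10.6 to 159) or 7.0 (1.85 to 39.1), and for Crygn 0.892 (0.332 to 2.31) or 0.795.

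**Figure D2:**
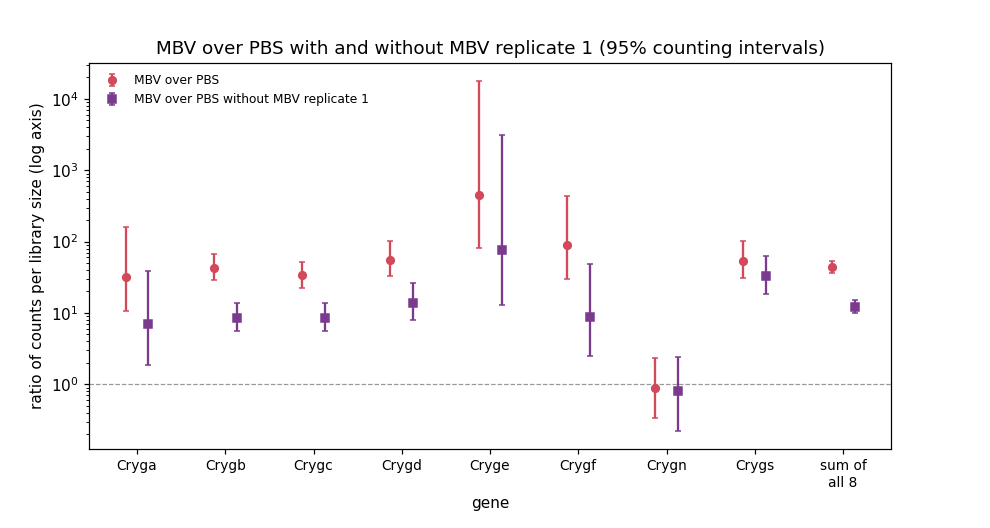
Ratio of counts relative to library size, MBV over PBS (log axis), for each gamma crystallin and for their sum, over all 3 MBV libraries (circles) and without MBV replicate 1 (squares), with 95% counting intervals. Without that library the ratio of the sum is 12.3 in place of 43.7, Crygs stays at 32.4, and Crygn lies around 1.

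In the fit of all genes by edgeR's quasi-likelihood test, genes were called at an FDR, the Benjamini-Hochberg adjusted p, under 0.05 with a fold change of at least 2. By this rule 7 of the 8 members, all except Crygn, were called higher with MBV than with PBS, where 0.953% of the 18897 genes tested were called higher and 1.95% in either direction. Since the family was chosen on this contrast, nothing is read from that count. The median log2 fold change over the 8 members was 5.45, against 0.01 over all genes tested. For 6 members every MBV library was above every PBS library, which held for 20.3% of all genes. The count of members called was 5 without MBV replicate 1, with Cryga and Crygf no longer called. It was also 5 without PBS replicate 1 or 3, and it was 3 (Crygc, Crygd and Crygs) without PBS replicate 2.

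With fluvastatin alone the sum of the 8 genes was 3.13 times that with PBS (95% counting interval 2.47 to 3.99), and without fluvastatin replicate 2 it was 0.670 times (0.444 to 0.992). PBS replicate 1 held 64 of the 97 PBS counts, and no ratio was taken without it, so no level below PBS is read from this. Fluvastatin replicate 2 decided the direction for Crygb, Crygc, Crygd, Crygf and Crygs, whose fitted changes against PBS turned negative without it. Crygn had 2 counts over the fluvastatin libraries and 12 over the PBS libraries, a ratio of 0.193 (0.0210 to 0.867). None of the 8 members was called, where 1.17% of 18818 genes were called in either direction, and edgeR gave 1 member, Cryge, an unadjusted p under 0.05, as it did 32.5% of all genes, from which nothing is read. Cryge was called without fluvastatin replicate 1 or 3. For none of them was every fluvastatin library above every PBS library, which held for 17.3% of all genes. DESeq2 gave no adjusted p for any of them. The median log2 fold change was 1.43, against -0.01 over all genes.

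MBV and fluvastatin libraries share 1 set of library numbers, and the sum of the 8 genes was 14.0 times higher with MBV (12.3 to 15.9), or 3.92 times (3.39 to 4.54) without MBV replicate 1. Fluvastatin replicate 2 held 226 of the 262 fluvastatin counts, and without it the sum was 65.2 times higher (47.0 to 93.3). The ratio for Crygs was 11.3 (8.5 to 15.2), with 6.87 (5.07 to 9.46) without MBV replicate 1 and 63.9 (29.2 to 175) without fluvastatin replicate 2. That for Crygb was 18.02 (13.6 to 24.4), with 3.65 (2.60 to 5.19) and 53.6 (29.8 to 108) without these libraries. edgeR and DESeq2 each called 0 of the 8 members, where edgeR called 0.0107% of 18721 genes. By edgeR 7 members had an unadjusted p under 0.05, as had 10.7% of all genes, and nothing is read from that count either. Crygs was the 1 member for which every MBV library was above every fluvastatin library, which held for 8.53% of all genes.

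The make-up of the gamma crystallin counts also differed between libraries, as shares that do not depend on library size. In MBV replicate 1 Crygs made up 12.3% of the 2942 counts (95% exact binomial interval 11.1 to 13.5). In MBV replicate 2 it made up 46.4% of 211 (39.6 to 53.4), and in MBV replicate 3 it made up 29.9% of 412 (25.5 to 34.5). Fluvastatin replicate 2, with 20.8% of 226 (15.7 to 26.7), lay between MBV replicates 1 and 3. The intervals of the 3 MBV libraries do not overlap each other, so these shares differed by more than counting error. Crygf made up 7.21% of the counts in MBV replicate 1 (6.30 to 8.20), and 1.90% (0.519 to 4.78), 2.43% (1.17 to 4.42) and 2.21% (0.722 to 5.09) in MBV replicates 2 and 3 and fluvastatin replicate 2. The share of Crygc in those libraries was between 14.7% and 26.5%.

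**Figure D3:**
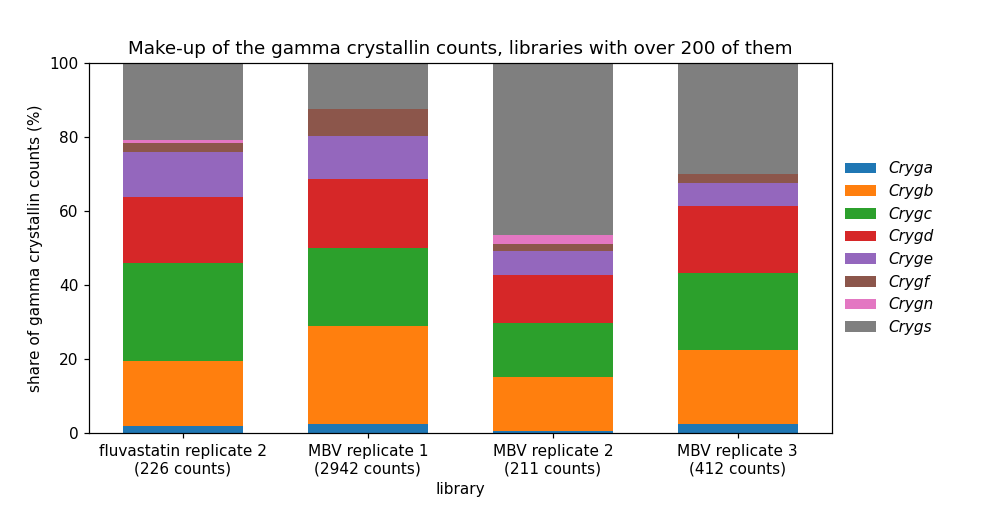
Share of each gene in the gamma crystallin counts (%, stacked bars) of the 4 libraries with over 200 such counts. Crygs takes 12.3% of the counts of MBV replicate 1 and 46.4% of those of MBV replicate 2, and Crygf takes 7.21% in MBV replicate 1 and under 2.5% in the other 3 libraries.

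Genes outside the family were tested in the same fits, in lists that too were drawn up with earlier results of these retinas known. Of the 8 alpha and beta crystallins tested, 7 were called higher with MBV than with PBS, beside the background of 0.953%. The log2 fold change was above 0 for all 8, with a median of 4.29. The list kept 7 calls when any 1 library was left out.

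Cryaa, the alpha crystallin made mainly in the lens, had 70, 10 and 1 counts with PBS, 14, 201 and 6 with fluvastatin, and 1507, 770 and 628 with MBV. It rose by a log2 fold change of 5.38 ± 0.57 (SE; edgeR FDR = 0.000599). Cryba1, a beta crystallin of the lens fibre, had 797, 291 and 269 counts in MBV libraries against 21, 8 and 2 in PBS libraries, a log2 fold change of 5.63 ± 0.54 (edgeR FDR = 0.000531). Crybb2, the main beta crystallin of the mature lens, had 951, 302 and 308 counts in MBV libraries against 26, 18 and 1 in PBS libraries, a log2 fold change of 5.30 ± 0.58 (edgeR FDR = 0.000657). In all 3 genes the lowest MBV library exceeded the highest of both other groups, and MBV replicate 1 was less far from the other 2 than for Crygb.

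Cryab, the small heat shock protein also made in glia and many other tissues, was the exception. Its counts were 672, 549 and 605 in PBS libraries, 514, 531 and 477 in fluvastatin libraries, and 1020, 659 and 660 in MBV libraries. The fitted log2 difference between MBV and PBS was 0.58 ± 0.11 (edgeR FDR = 0.00571), under the minimum of a 2-fold change. None of the 8 was called with fluvastatin against PBS, where the median log2 fold change was 0.98. None was called with MBV against fluvastatin either, where the median was 3.31 and every MBV library was above every fluvastatin library for all 8 genes, against 8.53% of all genes.

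The balance between gamma and other crystallins differed among libraries. Of the counts of Cryga to Crygf, Crygs and the alpha and beta crystallins except Cryab, Cryga to Crygf took 37.4% in MBV replicate 1 (36.2 to 38.5). They took 6.00% in MBV replicate 2 (4.95 to 7.20) and 15.5% in MBV replicate 3 (13.9 to 17.3). With PBS they took 21.8%, 25.6% and 7.41% of 225, 82 and 27 counts. With fluvastatin the shares were 25.6%, 23.1% and 22.5% of 82, 765 and 40 counts. The share in MBV replicates 2 and 3 was thus lower than in fluvastatin replicate 2 (20.2 to 26.3), and that in MBV replicate 1 was higher, each beyond counting error.

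Of 12 lens fibre genes that are not crystallins, 7 were called higher with MBV than with PBS, with a median log2 fold change of 2.86. Among these were Bfsp1, a protein of the beaded filament, Mip and Lim2, membrane proteins of the fibre, Grifin, a galectin-like protein, Lgsn, lengsin, and Lctl. Mip had 18, 18 and 12 counts with PBS, 15, 45 and 16 with fluvastatin, and 385, 33 and 44 with MBV, a log2 fold change of 3.40 ± 0.86 (edgeR FDR = 0.0193). Lgsn had 300, 10 and 26 counts in MBV libraries against 14, 9 and 7 in PBS libraries, a log2 fold change of 3.60 ± 1.08 (edgeR FDR = 0.0368). Bfsp1 had 182, 21 and 30 counts in MBV libraries against 20, 26 and 8 in PBS libraries, a log2 fold change of 2.27 ± 0.73 (edgeR FDR = 0.0483). For these 3, as for Cryga to Crygf, MBV replicate 1 held most of the counts. Without it 1 of the 12 was called, Mip, with a log2 fold change of 1.60 (edgeR FDR = 0.0125), and 1, 0 and 1 were called without PBS replicates 1, 2 and 3. Tdrd7, an RNA granule protein that the retina itself expresses, had a mean over 300 CPM with PBS and a log2 fold change of -0.32 ± 0.07 (edgeR FDR = 0.0113). With fluvastatin Bfsp2, the partner of Bfsp1, was called lower, at a log2 fold change of -1.11 ± 0.28 (edgeR FDR = 0.0186), beside a background of 0.802%, and no other gene of this list was called. Whether the lens genes came from lens tissue taken along with the retina was not tested.

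**Figure D4:**
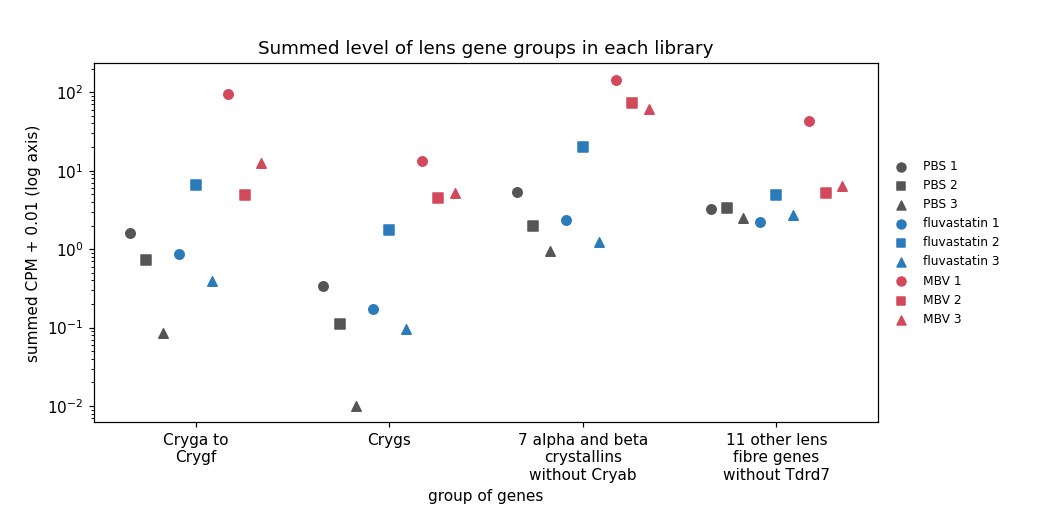
Summed level in CPM plus 0.01 (log axis) of Cryga to Crygf, of Crygs, of 7 alpha and beta crystallins without Cryab, and of 11 other lens fibre genes without Tdrd7, in each library. MBV replicate 1 is highest in all 4 groups of genes, at 94.2, 13.2, 145 and 42.8 CPM, while MBV replicates 2 and 3 are at 72.8 and 62.0 CPM for the alpha and beta crystallins and at 5.25 and 6.37 CPM for the other fibre genes.

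None of 10 regulators of lens and crystallin genes was called in any comparison. Prox1, a homeobox factor of lens fibres that is also expressed in retinal neurons, had a log2 fold change of 0.00 ± 0.09 with MBV against PBS (edgeR FDR = 0.980). Pax6, the eye's early master regulator, had 0.04 ± 0.04 (edgeR FDR = 0.583), and Six3 and Sox2 had -0.02 ± 0.06 and -0.03 ± 0.10. Sox1, Pitx3 and Foxe3, whose expression in the eye is mainly in the lens, had 0 counts in every PBS library. Sox1 had 10, 0 and 2 counts with MBV, Foxe3 2, 1 and 1, and Pitx3 0, 2 and 1.

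Markers of other tissue in the eye also differed between the groups, and their part in the crystallin counts was not tested. Of 8 pigment cell genes 5 were called lower with MBV, at a summed 50.7 to 109 CPM against 128 to 164 CPM with PBS, and with fluvastatin 5 were called lower and 1 higher. The other 3 had a log2 fold change above 0 with both treatments, Rgr among them at 0.82 ± 0.30 with MBV, so the list did not move as 1. Of all genes 1.00% were called lower with MBV, and with fluvastatin 0.802% were called lower and 0.367% higher. Of 7 surface epithelium genes 3 were called lower with MBV, at a summed 0.639 to 1.5 CPM against 2.66 to 6.14 CPM. Of 5 red blood cell genes 2 were called higher with MBV and 3 with fluvastatin, with sums of 14.0 to 17.2 and 13.3 to 17 CPM against 6.50 to 8.25 CPM with PBS. None of 8 photoreceptor, 7 retinal ganglion cell or 6 Müller glia genes was called with either treatment. The photoreceptor sum was 31667 to 44478 CPM with MBV and 45542 to 49064 CPM with PBS. The Müller glia sum was 2921 to 3551 CPM with PBS, 1502 to 2811 CPM with MBV and 1638 to 2820 CPM with fluvastatin, so both treated groups lay below all PBS libraries. Most of this sum was 1 gene, Glul, with a mean of 2332 of the 3297 CPM with PBS. The log2 fold change against PBS was above 0 for 3 of the 6 genes with MBV and for 1 with fluvastatin. None of 6 monocyte and macrophage genes was called with MBV, whose sum was 14.4 to 84.6 CPM against 14.2 to 28.4 CPM, and the highest library there was MBV replicate 3, not MBV replicate 1. With fluvastatin 1 of those 6 was called lower, at a summed 12.0 to 15.7 CPM.

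Of the 18 genes nearest to the row of 5 on chromosome 1, to Crygn and to Crygs, 3 on each side, 13 had counts and 0 were called with MBV against PBS. The neighbours of Crygf were not part of this count. Of these 13, 5 had an edgeR FDR under 0.05 with less than a 2-fold change, where 26.1% of all genes had an FDR under 0.05. Plekhm3, before Cryge, had a log2 fold change of -0.11 ± 0.06 (edgeR FDR = 0.179), and Idh1, the isocitrate dehydrogenase gene after Cryga, had -0.25 ± 0.05 (edgeR FDR = 0.00811). Tbccd1, which starts 1637 bases after the end of Crygs, had -0.27 ± 0.09 (edgeR FDR = 0.0457). The lowest value, -4.17 ± 2.40, was for Gm28845, which has few counts and 0 in every MBV library.

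Over the 9 libraries, the genes outside the family whose level followed the summed gamma crystallins most closely were other crystallins. The measure was Pearson's r of log2(CPM + 0.5) among 15049 genes with a mean of at least 10 counts per library, and it is given as a description, since the libraries fall into groups. The first 7 were Crybb3 (r = 0.971), Crybb1 (0.969), Crybb2 (0.969), Cryba4 (0.967), Cryba1 (0.964), Cryba2 (0.957) and Cryaa (0.949), that is, all alpha and beta crystallins listed except Cryab. Without MBV replicate 1 and fluvastatin replicate 2 their r was 0.935 to 0.978 over 7 libraries. Trhr, Gm6525 and Zfp12 came next at 0.948, 0.946 and 0.942, but their mean levels moved little, from 2.24 to 2.95 CPM for Trhr, from 2.90 to 3.51 CPM for Gm6525 and from 42.4 to 46.3 CPM for Zfp12 with PBS and MBV. Among the members, r between any 2 of Cryga to Crygf and Crygs was 0.770 to 0.996, and that of Crygn with the others was 0.0788 to 0.224. Crygn was at most 0.228 CPM in any library, under the 0.5 CPM added, so its low r says little. Cryga and Crygf did not exceed 0.428 CPM outside MBV replicate 1. For pairs of members no r was taken without MBV replicate 1 or fluvastatin replicate 2.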

How the data were processed

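Total RNA of injured whole retinae was sequenced with 75 base paired end reads, and RNA with an integrity number above 7 was used, per the methods of the study. Reads were aligned to GRCm39 by the authors, who deposited raw counts per gene from CLC Genomics Workbench 22.0.2, with no normalization, in 4 tables of 25655 genes. Whether strand was used and how reads that match several genes were treated is not given in the sources used here. Each table also holds the authors' comparison of 2 groups (fold changes, p-values and FDRs), which were not used. In the table of the combined treatment 6 count columns name no library and were not used, so the combined treatment is not analysed here. Columns of the same library repeated in another table were identical.

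The quasi-likelihood test of edgeR 4.0.16 (R 4.3.3) was run after TMM normalization in a fit of the 2 groups alone, on every gene that had any count in the libraries compared, with Benjamini-Hochberg adjustment over these genes. Genes were called where the FDR was under 0.05 and expression differed 2-fold or more. SEs of edgeR fold changes are approximate, namely the absolute log2 fold change divided by the square root of the test's F statistic. CPM values use the TMM library size. DESeq2 1.42.0 was an alternative, and others are given with the additional observations. The procedure was tested on simulated data, with changes placed only in genes above a minimum mean count. All genes there had the same dispersion and no library stood apart, so it does not bear on genes that 1 library dominates. Python 3.11.15, numpy 2.4.6, pandas 2.3.3 and scipy 1.17.1 were used for the rest. Counting intervals are exact binomial intervals at 95%. Counts of 3 or fewer in a library were taken as the limit of detection. Reads carry no molecular identifiers, so intervals cover counting error only. Depths of 21349516 to 30992040 counts set this limit at about 0.1 CPM. Transcript lengths are of the longest coding transcript in GENCODE mouse release M39, and promoters (250 bases before to 50 after the start) are of RefSeq, where all 8 members matched.

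The members and the lists were chosen with earlier results of these data known. The named genes are all 8 members, at most 4 examples of a list by mean CPM, the 3 nearest genes on each side of the row of 5 on chromosome 1, of Crygn and of Crygs, and the 10 genes of highest correlation. Genes named outside this rule (those called in the lens fibre list, Bfsp2, Sox1, Pitx3 and Foxe3) were chosen after their values were seen. Results for some genes of the lists are not reported here.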

Additional observations from a re-analysis of the deposited data

How the results depend on the processing

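With MBV against PBS 7 of the 8 alpha and beta crystallins were called under every alternative run, except that 8 were called with no fold minimum. No gamma crystallin called in a comparison changed direction there under any alternative run. The number of genes called with fluvastatin against PBS was 220, and it was 140 by DESeq2 and 3687 with no fold minimum, with 112 to 375 when 1 library was left out. With MBV against PBS it was 369, and 4937 with no fold minimum, with 196 to 575 when 1 library was left out. With MBV against fluvastatin it was 2, and 13 by DESeq2, 0 with at least 10 counts in 2 libraries, 11 with no fold minimum and 0 with the replicate block, with 0 to 33 when 1 library was left out. The lens fibre gene called with fluvastatin was lost (0 calls) by DESeq2, in 1 fit of all libraries and in some fits without 1 library (0 to 1). With MBV 4 of the 7 lens fibre genes were called at 10 counts in 2 libraries, a setting under which fewer genes are tested, and 0 to 8 when 1 library was left out. With MBV against fluvastatin DESeq2 called 3 alpha and beta crystallins and 1 other lens fibre gene in place of 0, and leaving out 1 library gave 0 to 7 alpha and beta crystallins, with 7 without MBV replicate 3, and 0 to 1 lens fibre genes. Gamma crystallins called were 0 to 1 with fluvastatin against PBS, 3 to 7 with MBV against PBS and 0 to 1 with MBV against fluvastatin when 1 library was left out, and 0 to 1 alpha and beta crystallins were called with fluvastatin against PBS. The cause of these changes was not tested. The mean summed gamma crystallin level ranged over 0.574 to 1.5 CPM with PBS, 0.748 to 4.74 CPM with fluvastatin and 13.6 to 62.6 CPM with MBV when 1 library was left out. These levels moved by less than 1 SD between libraries, a limit that leaving out 1 of 3 libraries cannot pass. Nothing is read from it, and 1 library dominates both treated groups.

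The replicate numbers did not pair the libraries, since the correlation of the deviations from the group means was -0.289 to 0.133 over the numbers. With the replicate number as a block 1 gamma crystallin, Cryge, was called with fluvastatin against PBS in place of 0. The alternatives for the combined treatment were not run, because its count columns name no library.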
